A study of Mus musculus with 8 samples.

Results

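A set of 10 genes that mark GABAergic interneurons, of the 56575 features in the table and each found on a single row by its symbol, was followed in RNA-seq libraries of mouse hippocampus. They are Gad1, Gad2, Slc32a1, Pvalb, Sst, Vip, Npy, Cck, Reln and Calb2. The genes were chosen by name and not by their values. The tissue came from 8-week-old C57BL/6 mice, as 4 libraries labelled Slm2KO and 4 labelled WT, with no treatment given in the labels. SLM2 is the RNA-binding splicing regulator encoded by Khdrbs3, and the study compared overall expression and splicing between the genotypes. How the knockout allele was made, which exons it removes and whether each library came from a separate animal is stated neither in the labels nor in the table. The p-values therefore describe only how these libraries scatter, which may be technical. The unit throughout is the normalised read count: reads of a gene divided by 1 size factor per library, not divided by gene length.

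Inhibitory interneurons are a small fraction of hippocampal neurons. They make GABA from glutamate with the glutamate decarboxylases encoded by Gad1 and Gad2, and load it into synaptic vesicles with the transporter encoded by Slc32a1. Classes of interneuron are told apart by what else they contain: the calcium buffers parvalbumin (Pvalb) and calretinin (Calb2), the neuropeptides somatostatin (Sst), vasoactive intestinal peptide (Vip), neuropeptide Y (Npy) and cholecystokinin (Cck), or the secreted glycoprotein reelin (Reln). Several of these genes are not confined to interneurons. Pyramidal cells also contain Cck mRNA, mossy cells of the mouse dentate hilus contain calretinin, and Cajal-Retzius cells along the hippocampal fissure contain both reelin and calretinin. In bulk tissue, fewer cells of a type and less RNA per cell cannot be told apart.

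None of the 10 interneuron genes passed the test for a difference between Slm2KO and WT libraries. The differences lay between -0.13 (Cck) and 0.19 (Vip) on the log2(value + 1) scale, 5 positive and 5 negative, and for each gene the values of the labels overlapped. The 95% interval of every one of the 10 lay within a 1.5-fold change in either direction. The genes were unlike each other in how much they varied between libraries: Gad1 ranged 1.17-fold over the 8 libraries and Calb2 2.00-fold.

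The libraries held 104020058 to 125985224 reads. As a check of the labels, Khdrbs3 itself did not have lower values under the Slm2KO label. Its normalised read counts were 29676, 33366, 30022 and 25932 in Slm2KO libraries and 20662, 23542, 19458 and 24544 in WT libraries. All 4 Slm2KO values were above all 4 WT values, 1.35-fold higher by group means. Groups are therefore called by their labels. Khdrbs2, which encodes the related protein SLM1, was the only one of 25667 features tested that passed over all features, 2.26-fold higher by group means in Slm2KO libraries (limma adjusted p = 0.00761). Its adjusted p exceeded 0.05 without Slm2KO 1 (0.0527), Slm2KO 3 (0.0790), WT 1 (0.0582) or WT 4 (0.0767). The tissue label was checked against neuron markers: Neurod6, a transcription factor of pyramidal cells, had 40018 to 59310 normalised reads, and Prox1, that of dentate granule cells, 5390 to 7869. The choroid plexus transcript Ttr differed widely, with 2262369 normalised reads in Slm2KO 4 and 219052 in WT 2.

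The 3 genes of GABA synthesis and packaging had the lowest SD of log2 values within labels. Gad1, whose product GAD67 makes most of the GABA of the cell body (chromosome 2, 70562162 to 70602012, plus strand, mm10), had 32143, 28317, 31732 and 27468 normalised reads in Slm2KO libraries, against 28684, 31065, 28945 and 29987 in WT libraries. The 4 WT values lay within the range of the 4 Slm2KO values. The log2 difference was 0.01 (SE 0.063, n = 4 each; limma adjusted p = 1.00; exact permutation p = 0.886), with an interval of 0.913- to 1.11-fold.

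Gad2, which encodes the nerve-terminal enzyme GAD65 (chromosome 2, 22622318 to 22693877, plus strand), had 8726, 7044, 8471 and 9062 normalised reads in Slm2KO libraries, against 8168, 8665, 8695 and 8649 in WT libraries. Slm2KO 2 was the lowest of all 8, and Slm2KO 4 the highest. Its log2 difference was -0.04 (SE 0.076, n = 4 each; limma adjusted p = 1.00; exact permutation p = 0.83). Slc32a1, the vesicular GABA transporter gene (chromosome 2, 158610758 to 158615764, plus strand), had 9902, 8052, 8815 and 9456 in Slm2KO libraries and 9317, 10183, 10073 and 9162 in WT libraries. Slm2KO 2 was again lowest. The log2 difference was -0.10 (SE 0.071, n = 4 each; limma adjusted p = 1.00; exact permutation p = 0.257), with an interval of 0.837- to 1.04-fold, and this was the smallest permutation p among the 10 genes; the smallest the design allows is 0.0286.

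**Figure D1:**
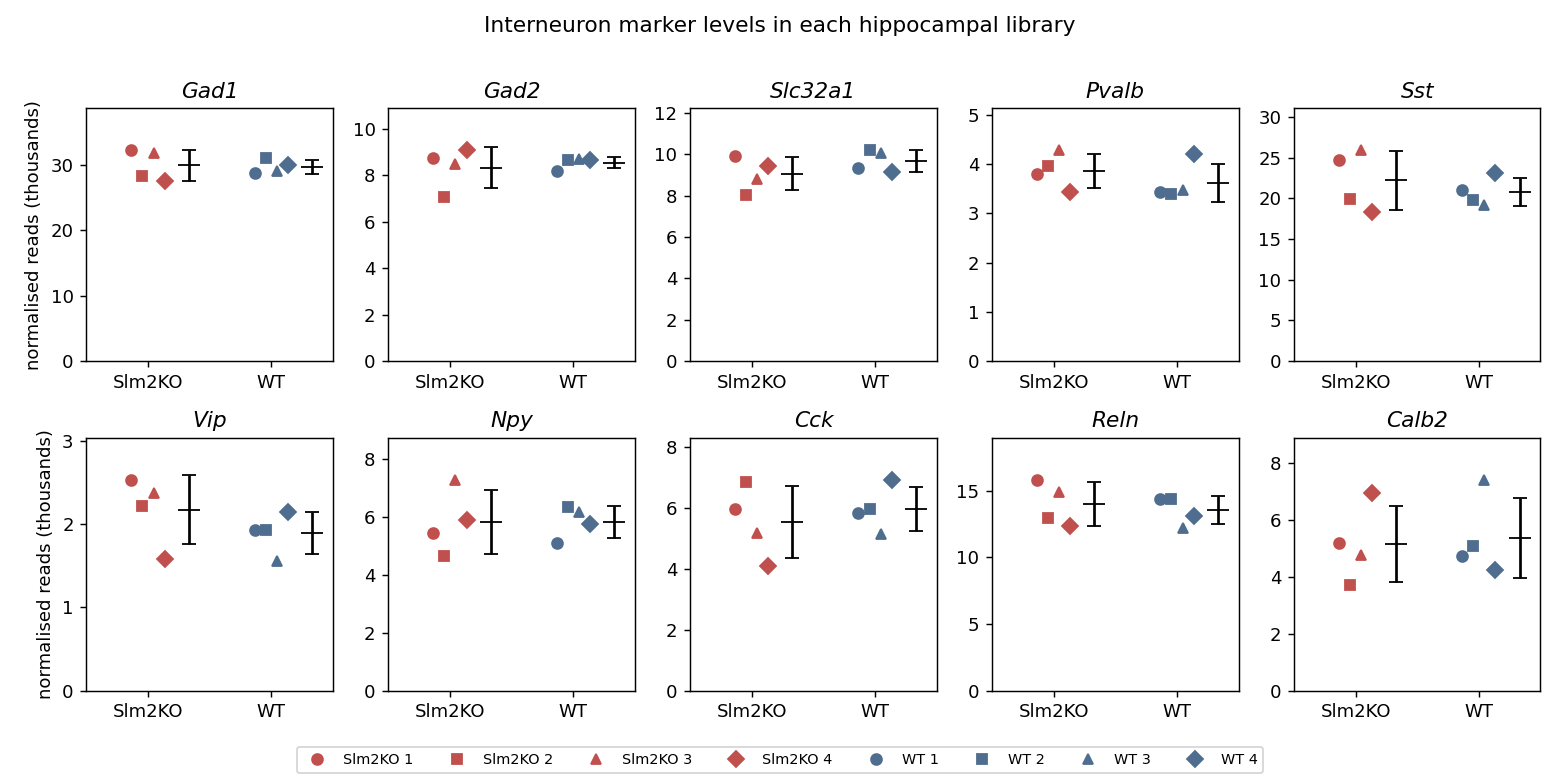
Normalised read counts (linear axes from 0) of the 10 genes in each library, with Slm2KO libraries on the left and WT libraries on the right of each panel; black bars are mean ± SD, n = 4. In each panel the points of the labels overlap, from Gad1 with 27468 to 32143 reads to Calb2 with 3712 to 7410.

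Pvalb, the calcium buffer of fast-spiking basket and axo-axonic cells (chromosome 15, 78191114 to 78206385, minus strand), had 3798, 3957, 4280 and 3441 normalised reads in Slm2KO libraries, against 3429, 3388, 3471 and 4202 in WT libraries. Of the WT libraries 3 lay close together and below 3 of the Slm2KO values, while WT 4 was among the highest. The log2 difference was 0.10 (SE 0.088, n = 4 each; limma adjusted p = 1.00; exact permutation p = 0.314), and the interval ran from 0.934- to 1.22-fold. Without WT 4 the log2 difference was 0.170 and still did not pass.

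Sst, the peptide of dendrite-targeting interneurons such as O-LM cells (chromosome 16, 23889581 to 23890845, minus strand), had 24697, 19940, 25880 and 18302 normalised reads in Slm2KO libraries. It had 21028, 19739, 19191 and 23115 in WT libraries. The Slm2KO libraries held both the highest and the lowest value. Mean levels were 22205 ± 3655 in Slm2KO and 20768 ± 1744 in WT libraries (SD, n = 4 each), a log2 difference of 0.09 (SE 0.111; limma adjusted p = 1.00; exact permutation p = 0.543).

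Vip, the peptide of interneurons that mainly contact other interneurons (chromosome 10, 5639217 to 5647614, plus strand), had 2526, 2218, 2366 and 1574 normalised reads in Slm2KO libraries, against 1931, 1928, 1549 and 2148 in WT libraries. Slm2KO 1, 2 and 3 were above every WT library, and Slm2KO 4 was below 3 of them. Its difference, 0.19 on the log2 scale (SE 0.148, n = 4 each), was the largest of the 10. It missed the threshold in limma (adjusted p = 1.00; exact permutation p = 0.314), and the interval ran from 0.906- to 1.43-fold. It was 0.335 without Slm2KO 4 (limma unadjusted p = 0.0105, adjusted p = 0.897) and 0.0960 without WT 3. Without both Slm2KO 4 and WT 2, the libraries with the highest and the lowest Ttr, it was 0.348 (limma unadjusted p = 0.0158, adjusted p = 0.770).

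Sst and Vip also varied together between libraries. Slm2KO 1 and 3 and WT 4 were high in both, and Slm2KO 4 and WT 3 were low in both. Over the 8 libraries the log2 levels had a Pearson r of 0.842 (exact permutation p = 0.0102) and a Spearman rho of 0.881 (exact permutation p = 0.00724). Both were two-sided, and after Benjamini-Hochberg adjustment over the 45 pairs of the 10 genes neither passed (adjusted p = 0.198 and 0.231). Without Slm2KO 1 and 3, the libraries farthest from the median of Sst, r was 0.710. Within each series of sample numbers 4 libraries are too few for a test. Sst is a classic gene for the cyclic AMP response element, the TGACGTCA sequence bound by CREB. Vip is known for a related element, so the start regions of this pair are shown. Any part of these elements in the shared library pattern was not tested. They are RefSeq promoter windows on GRCm38.p6, the assembly of mm10 (250 bases before to 50 after the start), for Sst at chr16:23890795-23891094 on the minus strand and for Vip at chr10:5638968-5639267 on the plus strand. Capitals mark TGACGT or its reverse complement ACGTCA; in Sst these overlap as the full palindrome TGACGTCA.
Sst: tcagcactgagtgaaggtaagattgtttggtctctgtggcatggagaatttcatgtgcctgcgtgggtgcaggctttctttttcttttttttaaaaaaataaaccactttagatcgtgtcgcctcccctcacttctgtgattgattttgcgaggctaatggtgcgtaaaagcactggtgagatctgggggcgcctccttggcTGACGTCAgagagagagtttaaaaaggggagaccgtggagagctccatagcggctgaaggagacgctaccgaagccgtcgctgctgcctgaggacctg
Vip: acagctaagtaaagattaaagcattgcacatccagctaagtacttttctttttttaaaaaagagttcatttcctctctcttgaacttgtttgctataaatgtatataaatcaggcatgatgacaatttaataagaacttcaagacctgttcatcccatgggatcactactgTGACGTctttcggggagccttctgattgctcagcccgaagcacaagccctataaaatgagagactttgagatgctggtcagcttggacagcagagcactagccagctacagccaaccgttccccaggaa
The match starts 48 bases before the transcription start in Sst and 79 bases before it in Vip. A search of both strands of the windows of 9 of the 10 genes (Calb2 was not used here) found TGACGT in these 2 genes, and TGACGTCA in Sst alone. Of all 32851 mouse promoter windows in the table, 7.51% held TGACGT and 1.79% held TGACGTCA. TATAAA, on either strand, was in the windows of Gad1 and Vip and in 13.6% of all windows.

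Npy, the peptide of neurogliaform, ivy and many Sst cells (chromosome 6, 49822716 to 49829503, plus strand), had 5462, 4643, 7275 and 5884 normalised reads in Slm2KO libraries and 5101, 6344, 6162 and 5750 in WT libraries. The highest value, in Slm2KO 3, and the lowest, in Slm2KO 2, were both in Slm2KO libraries. The group means were 5816 ± 1101 in Slm2KO and 5839 ± 551 in WT libraries (SD, n = 4 each; log2 difference -0.02, SE 0.124; limma adjusted p = 1.00; exact permutation p = 0.914).

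Reln, the secreted glycoprotein of neurogliaform and Sst interneurons and of Cajal-Retzius cells (chromosome 5, 21884454 to 22344706, minus strand), had 15814, 12949, 14951 and 12348 normalised reads in Slm2KO libraries, against 14398, 14385, 12236 and 13137 in WT libraries. Slm2KO 1 was highest and WT 3 lowest. The log2 difference was 0.05 (SE 0.088, n = 4 each; limma adjusted p = 1.00; exact permutation p = 0.657), with an interval of 0.901- to 1.18-fold.

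Cck and Calb2 varied most and in opposite directions. Cck, the peptide of CCK basket cells and of pyramidal cells (chromosome 9, 121489824 to 121495694, minus strand), had 5980, 6867, 5189 and 4082 normalised reads in Slm2KO libraries, against 5826, 5980, 5155 and 6921 in WT libraries. Calb2, calretinin (chromosome 8, 110137502 to 110168213, minus strand), had 5183, 3712, 4784 and 6947 in Slm2KO libraries, against 4726, 5090, 7410 and 4257 in WT libraries. Slm2KO 4 and WT 3 held the 2 lowest Cck values and the 2 highest Calb2 values, and Slm2KO 2 and WT 4 the 2 highest Cck and 2 lowest Calb2 values. The log2 difference between the labels was -0.13 for Cck (SE 0.147; limma adjusted p = 1.00; exact permutation p = 0.571; interval of 0.729- to 1.1-fold). For Calb2 it was -0.06 (SE 0.201; limma adjusted p = 1.00; exact permutation p = 0.83; interval of 0.702- to 1.31-fold). Both rest on single libraries: Cck was at 0.00859 without Slm2KO 4, and Calb2 ran from -0.217 without Slm2KO 4 to 0.104 without WT 3.

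**Figure D2:**
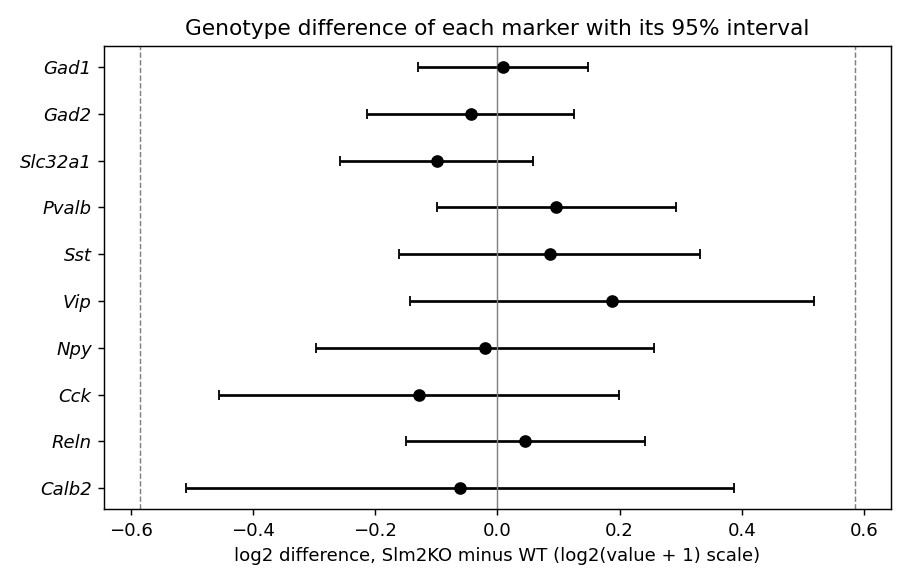
Log2 difference, Slm2KO minus WT, of each gene on the log2(value + 1) scale with its 95% interval from limma (n = 4 each); the dashed lines mark a 1.5-fold change. Every interval spans 0 and lies inside the dashed lines, from 0.913- to 1.11-fold for Gad1 to 0.702- to 1.31-fold for Calb2.

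Read against all features, the count of 0 passing members stands beside a background in which 0.0039% of the 25667 features passed over all features tested. edgeR's quasi-likelihood test and DESeq2 also called 0 of the 10. No member had an unadjusted limma p under 0.05 (3.52% of features did, 1.7% higher and 1.82% lower in Slm2KO libraries), and for no member did the labels fail to overlap (2.5% of features). Intervals within 1.5-fold were found for 65.7% of features. The median log2 difference was -0.0053 over the 10 members and -0.0115 over all features. The sample numbers in the labels fall into a lower and a higher series, with 2 libraries per label in each. The log2 differences in the lower and higher series had the same sign for 5 members, among them Vip (0.295 and 0.0812), Pvalb (0.185 and 0.00710) and Slc32a1 (-0.125 and -0.0734). They had opposite signs for the other 5, among them Cck (0.119 and -0.376) and Npy (-0.176 and 0.136).

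Ordered by abundance, Sst was far above the other interneuron transcripts. Levels of different genes were compared only per kilobase of annotated exon (the union of exons in GENCODE vM21 on the same assembly). Sst had 29801 normalised reads per kb over the 8 libraries (range 25385 to 35895), and Npy followed with 10296 (8204 to 12854). Neither range overlapped that of the next gene. Then came Cck (4406 per kb), Gad1 (3900), Pvalb (3598), Slc32a1 (3350) and Calb2 (3020), each of which overlapped its neighbour in this order. Gad2 (1435 per kb; 1199 to 1542) lay clearly below Calb2 in all 8 libraries and above Vip (597), and Vip overlapped Reln (580). Sst per kb averaged 30798 ± 5069 in Slm2KO and 28805 ± 2418 in WT libraries (SD, n = 4 each). The last pair stood in opposite order under the labels: Vip averaged 638 ± 123 and Reln 590 ± 68.9 per kb in Slm2KO libraries, and Vip 555 ± 73.2 and Reln 570 ± 44.3 in WT libraries, differences smaller than the spread. The order depends on the length used. Per kb of the longest annotated transcript Sst and Npy stayed first and second, Gad1 stood at 8273 and Cck at 7197, and Reln (1178) was above Vip (802). Not all annotated exons are used in this tissue, so such levels are approximate.

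**Figure D3:**
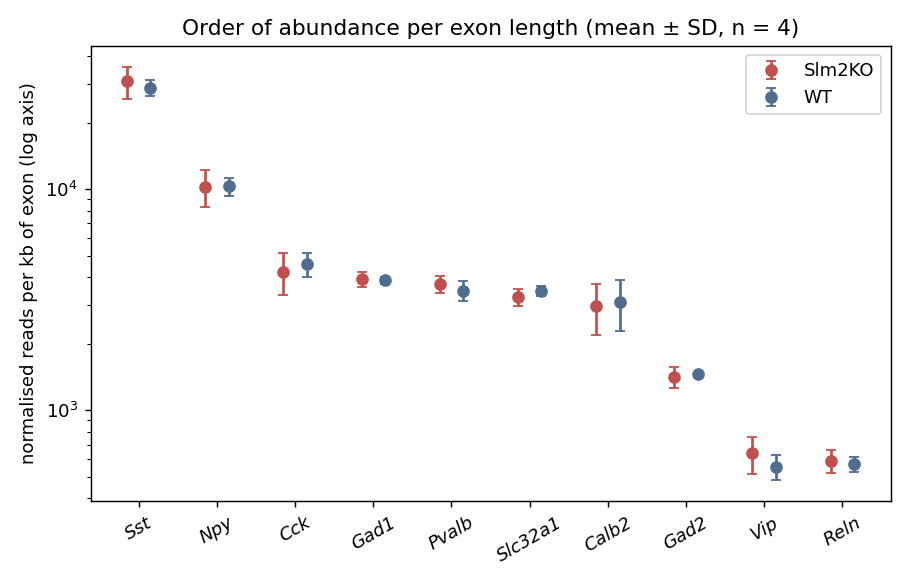
Normalised reads per kb of annotated exon (log axis), mean ± SD of 4 libraries, for Slm2KO (left of each pair) and WT libraries. Sst at 29801 per kb over all libraries is 2.89 times Npy, and the 5 genes from Cck to Calb2 overlap their neighbours between 4406 and 3020.

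Stability between libraries separated the GABA genes from the peptide and calretinin genes. Spread was measured as the SD of log2(value + 1) within a label, pooled over both labels, and set beside features of like level (mean log2 within 0.5). Gad1 had an SD of 0.0891, near the median of 0.0934 of 553 features of like level. Slc32a1 (0.107), Gad2 (0.118), Pvalb (0.139) and Reln (0.144) were somewhat more variable, with 63.2% to 81.8% of features of like level below them. Sst (0.190), Npy (0.214), Vip (0.256), Cck (0.258) and Calb2 (0.360) were more variable than 92.8% to 98.7% of features of like level. These are descriptions, with no test. The Vip value falls to 0.164 without Slm2KO 4 and the Gad2 value to 0.0455 without Slm2KO 2.

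**Figure D4:**
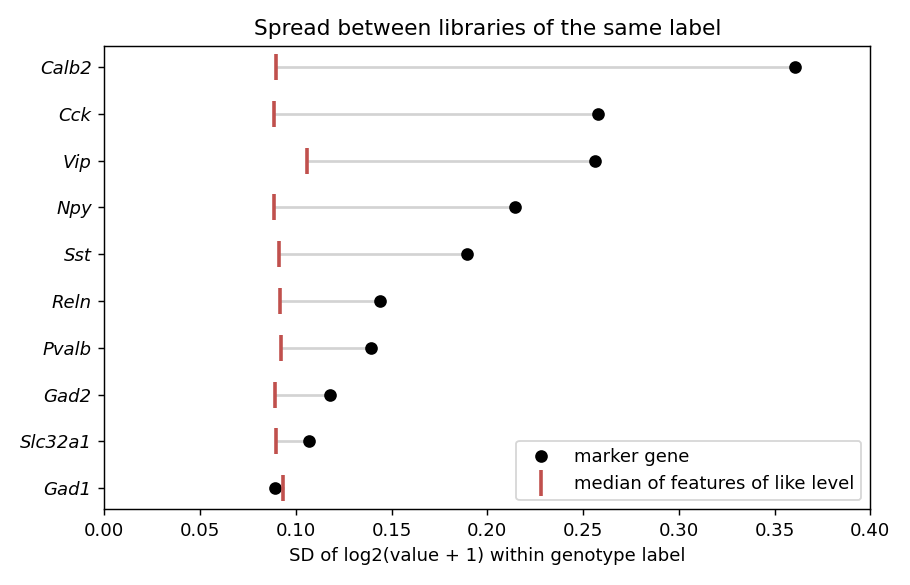
SD of log2(value + 1) within genotype label for each gene (black points) and the median SD of features of like level (red ticks). Gad1 (0.0891) sits at its tick, and Calb2 (0.360) is farthest from its tick (0.0898).

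The class markers were then read relative to the GABA genes of the same library, as the log2 level minus the mean log2 level of Gad1, Gad2 and Slc32a1. For Vip this was -2.48, -2.40, -2.49 and -3.08 in Slm2KO libraries, against -2.75, -2.86, -3.14 and -2.63 in WT libraries. Slm2KO 4 and WT 3 were again the lowest. The mean relative level in Slm2KO minus that in WT libraries was 0.23 for Vip, 0.14 for Pvalb, 0.13 for Sst, 0.09 for Reln, 0.02 for Npy, -0.02 for Calb2 and -0.08 for Cck, each with groups that overlapped. The pooled SD within labels was 0.27 for Vip, 0.18 for Pvalb, 0.18 for Sst and 0.13 for Reln, so each of these 4 differences was smaller than 1 SD. The level of Gad1 over Gad2 was 1.85 ± 0.17 in Slm2KO and 1.80 ± 0.05 in WT libraries on the log2 scale (SD, n = 4 each), highest in Slm2KO 2 (2.01) and lowest in Slm2KO 4 (1.6).

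The members did not move as 1 block from library to library. Of the 45 pairs, 30 had a positive and 15 a negative Pearson r over the 8 libraries, and none passed Benjamini-Hochberg adjustment by exact permutation (lowest adjusted p = 0.198; 10 pairs had an unadjusted p under 0.05). Besides Sst and Vip, the pair with the largest r in size was Gad1 and Reln (r = 0.821, exact permutation p = 0.0198; rho = 0.738, exact permutation p = 0.0458; adjusted p = 0.198 and 0.288), whose r was 0.579 without Slm2KO 1 and 3. Cck and Calb2 were the most opposed (r = -0.819, exact permutation p = 0.0124; rho = -0.738, exact permutation p = 0.0458; adjusted p = 0.198 and 0.288), with r of -0.759 without Slm2KO 4 and WT 4. Vip and Calb2 had an r of -0.754 (exact permutation p = 0.0292; rho = -0.500, exact permutation p = 0.216; adjusted p = 0.198 and 0.540) that rests on Slm2KO 4 and WT 3: without them r was 0.0376. Gad2 and Slc32a1 (r = 0.795, exact permutation p = 0.0313; rho = 0.690, exact permutation p = 0.0694; adjusted p = 0.198 and 0.312) likewise rest on Slm2KO 2 and WT 1, without which r was 0.280.

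Genes of other cell types also differed in the libraries where Calb2 was high and Cck low, Slm2KO 4 among Slm2KO and WT 3 among WT libraries, though not all genes of a list in 1 direction. Slc17a7, the vesicular glutamate transporter of excitatory neurons, had 164626, 177857, 157608 and 115923 normalised reads in Slm2KO libraries, against 151637, 166858, 137154 and 162306 in WT libraries. As with Cck, Slm2KO 2 was highest and Slm2KO 4 lowest among Slm2KO libraries, and WT 3 was lowest among WT libraries. The summed level of 7 tested excitatory neuron markers other than Cck ran from 436575 to 636352 in Slm2KO and from 502820 to 603373 in WT libraries, and 5 of the 7 were lowest in both Slm2KO 4 and WT 3. Zic1, a transcription factor of the septum, thalamus and meninges, had 3960, 1287, 3678 and 8412 in Slm2KO libraries, against 4896, 4613, 7543 and 2533 in WT libraries. Like Calb2, it was highest in Slm2KO 4 and WT 3 and lowest in Slm2KO 2 and WT 4. Prkcd, a kinase gene abundant in thalamic relay neurons, had 3236 in Slm2KO 2 and 8186 in Slm2KO 4, and 4398 in WT 4 and 8165 in WT 3. Over 8 tested genes of neighbouring thalamus, striatum and septum, the sum ran from 9795 to 21920 in Slm2KO and from 11880 to 20624 in WT libraries, with none at 0. Of these 8, Prkcd, Slc17a6 and Zic1 were highest in Slm2KO 4 and WT 3 within their labels, while Rorb and Rgs9 were lowest there (Rgs9 at 988 and 1084) and 3 were neither. Of 8 Cajal-Retzius genes other than members, the sum ran from 6919 to 9380 in Slm2KO and from 7174 to 9318 in WT libraries, again highest in Slm2KO 4 and WT 3. In that list Trp73 (p73) had 928 to 1579 normalised reads, and Ebf3 187 in Slm2KO 2, 1575 in Slm2KO 4 and 1586 in WT 3. Like Ttr, Trp73 was lowest in Slm2KO 2 and highest in Slm2KO 4 among Slm2KO libraries, and highest in WT 3 (1393) among WT libraries. The lowest WT value was in WT 4 for Trp73 (1028) and in WT 2 for Ttr. Which cells the Trp73 reads came from was not tested. Within labels 5 of the 8 were highest in Slm2KO 4 and WT 3, and Car10 was lowest in Slm2KO 4 (1594). The member Reln, also a gene of these cells, went the other way. Within labels it was lowest in Slm2KO 4 (12348) and in WT 3 (12236). Of 6 mossy cell genes, Drd2 (832 and 780) and Tm4sf1 were highest in Slm2KO 4 and WT 3 within their labels and Ociad2 was lowest (21445 and 19549), while the list's sum was 27729 to 29671 in Slm2KO and 25636 to 30003 in WT libraries. The 8 choroid plexus genes varied most: their sum was 1171980, 517221, 1125020 and 3087790 in Slm2KO libraries, against 2067030, 339022, 2433130 and 1090030 in WT libraries. It too was highest in Slm2KO 4 and WT 3 within their labels, where Vip was lowest. Interneuron genes of the lists given below differed there too, in both directions. Of 12 Dlx family and pan-interneuron genes, Dlx1, Dlx5 and Kcnip1 were highest in Slm2KO 4 and WT 3 within their labels, and 4 were lowest. Of 7 lineage genes of Vip and Cck cells, Sp8 was highest there and 2 were lowest. Of 8 lineage genes of Pvalb and Sst cells, Nkx2-1 was highest there and 5 were lowest. The part of any of these cells or regions in the Calb2, Cck and Vip values was not tested. Slc17a7, Zic1 and Prkcd were singled out after their values were seen. Of these, Prkcd was also among the 3 genes of its list with the smallest limma p.

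**Figure D5:**
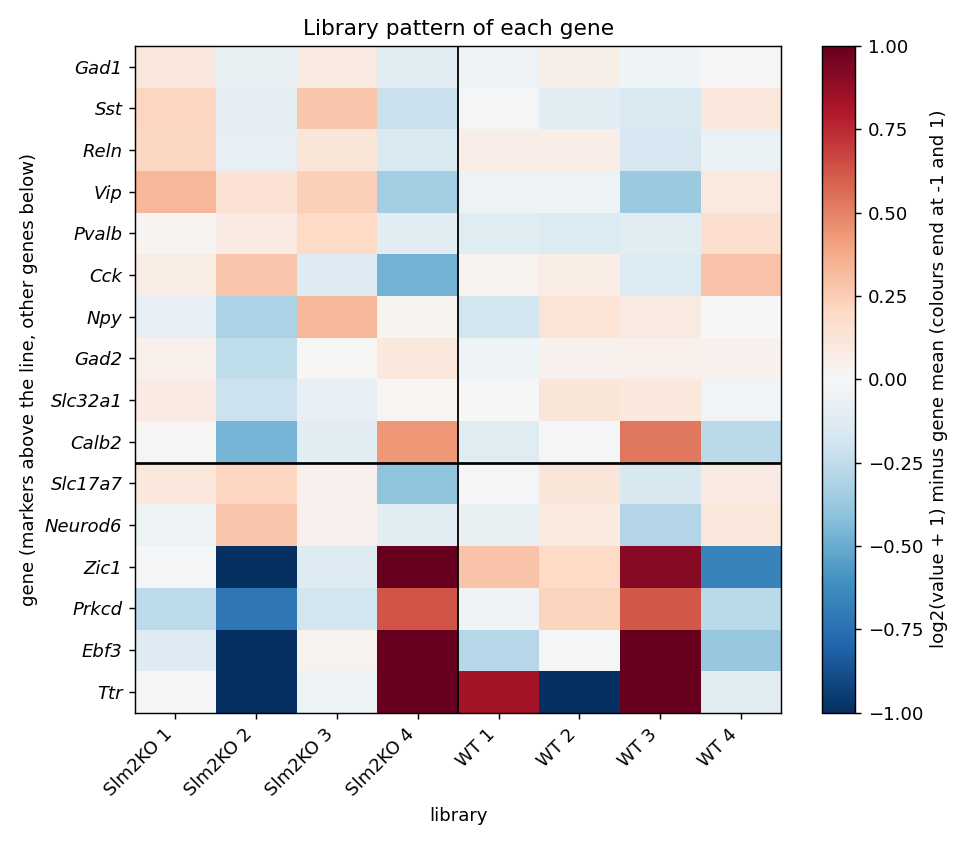
Log2(value + 1) minus the gene's mean over the 8 libraries, for the 10 interneuron genes (above the line) and 6 genes of other cells or regions (below), with Slm2KO libraries on the left; colours end at -1 and 1. Calb2, Zic1, Prkcd and Ebf3 are all highest in Slm2KO 4 and WT 3 and lowest in Slm2KO 2, where Cck, Slc17a7 and Neurod6 are high.

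Genes whose library pattern was most like that of a member were taken from 14793 other named genes with a mean of at least 100, by Pearson r over the 8 libraries after centring within label. Given that number of genes and only 8 libraries, high values are found for each member, and they are given as a description. Nearest to Sst were Pspc1 (r = 0.985), Sdhaf1 (0.984) and Rsph3a (0.984). Vip was nearest to Chst8 (0.995), Lrrc8d (0.991) and Dock3 (0.988), and Pvalb to Eid1 (0.983), Zfp940 (0.980) and Zfp39 (0.980). For Calb2 they were Gm10714 (0.996), Ccdc40 (0.993) and Prkg2 (0.991), and for Cck Ust (0.995), Clec11a (0.994) and Lmo7 (0.994). Reln was nearest to Zfp746 (0.992), Gpr101 (0.983) and Dio3 (0.981), and Npy to 2210015D19Rik (0.966), Stx3 (0.954) and Mx2 (0.953). Among the GABA genes, Gad1 was nearest to Mepce (0.980), Creb3l3 (0.977) and Srd5a3 (0.976), Gad2 to 9330117O12Rik (0.972), Agmo (0.971) and Oas1c (0.962), and Slc32a1 to Ttyh2 (0.997), Asb16 (0.964) and Rapgef3 (0.938). No member was among the nearest 3 of another member.

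Other genes of the interneuron classes, from lists of known markers, likewise held none past the threshold over all features; 53.9% of all features tested had a negative difference. Of 8 transcription factor and related genes of the medial ganglionic eminence lineage, which gives rise to Pvalb and Sst cells, 4 were positive and 4 negative. Sox6, needed for the maturation of those cells, was at 0.10, Maf at -0.11 and Elmo1 at -0.06 on the log2 scale. Of 7 genes of the caudal ganglionic eminence lineage, which gives Vip, Cck and many neurogliaform cells, 7 were negative, with a median of -0.09 against -0.01 over all features. Among them were Adarb2 (-0.09), the transcription factor Nr2f1 (-0.14) and Npas3 (-0.10), and no p was under 0.05 before adjustment. Nr2f1, Nr2f2, Adarb2, Htr3a and Npas1 were each lowest in Slm2KO 4, so the shared sign leans on that library. The sum of the 7 was 7724, 7361, 7216 and 6101 in Slm2KO libraries, against 7060, 7964, 7232 and 7545 in WT libraries. Of 12 Dlx family and pan-interneuron genes 4 were positive and 8 negative, with Nxph1, a secreted ligand of neurexins, at 0.08 and the neuregulin receptor gene Erbb4 at -0.05.

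The list of parvalbumin-class genes had 7 positive and 3 negative values among 10 other than Pvalb, with the potassium channel gene Kcnc1 at -0.15, the bone morphogenetic protein antagonist Nog at -0.08 and Cox6a2, a subunit of cytochrome oxidase, at 0.10. Of 11 somatostatin-class genes other than members 5 were positive and 6 negative. Elfn1, a postsynaptic adhesion protein that sets release onto O-LM cells, had 3940, 3518, 3668 and 3624 normalised reads in Slm2KO libraries, against 3903, 4225, 4034 and 4069 in WT libraries. The labels overlapped through Slm2KO 1, and the log2 difference of -0.14 did not pass (limma unadjusted p = 0.0284, adjusted p = 1.00). Pnoc, the nociceptin precursor, was at -0.19 and Calb1, calbindin, at -0.13. Calb1 is also counted in the list of dentate granule cell genes given below. Of 10 genes of the Vip, Cck and calretinin classes 3 were positive and 7 negative, with Crispld2 at -0.39, Crh (corticotropin-releasing hormone) at -0.16 and Chat, the acetylcholine enzyme, at -0.75 with only 2 to 16 normalised reads. The 8 neurogliaform and ivy genes split 4 and 4, with Id2 at 0.07, Lamp5 at 0.06 and Kit, a receptor tyrosine kinase, at 0.10.

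Uptake and breakdown of GABA and the receptors of the interneuron peptides complete the pathway. All 7 tested genes of GABA reuptake, breakdown and precursor supply other than members were negative, with a median of -0.07 against -0.01 over all features and none past the threshold. The transporter genes Slc6a13 (-0.71) and Slc6a12 (-0.84) lay lowest, and Abat, which breaks GABA down, was at -0.06. Slc6a13 varied widely, with 1601, 598, 875 and 565 normalised reads in Slm2KO libraries against 2728, 1296, 951 and 1008 in WT libraries, and the labels overlapped. Slc6a12 also overlapped, from 79 in Slm2KO 2 to 720 in WT 1, so both transporter genes were highest in WT 1. Which cells these reads came from was not tested. Of 14 receptors and signalling partners of somatostatin, Npy, Cck, Vip and reelin 6 were positive and 8 negative. Lrp8, the reelin receptor ApoER2, had 5462, 5067, 4726 and 4711 in Slm2KO libraries, against 5904, 5910, 6335 and 5479 in WT libraries. All 4 Slm2KO values were below all 4 WT values, but the log2 difference of -0.24 (SE 0.066) did not pass over all features (limma adjusted p = 1.00, unadjusted p = 0.00413; exact permutation p = 0.0286). Vldlr, the other reelin receptor, was at -0.06 and Dab1, the adaptor of both, at 0.08, neither past the threshold. Cckar was at -1.31 with 0 to 24 normalised reads, and Npy1r at -0.09.

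Of the lists for other cells, the 8 dentate granule cell genes were all negative, with Pdyn at -0.20, Tdo2 at -0.26 and Dsp at -0.26. Over all features tested, 53.9% were negative. Of the 8 genes, 4 had an unadjusted limma p under 0.05, against 3.52% of all features. For Pdyn and Tdo2 the labels did not overlap, as for 2.5% of all features. Each of the 8 genes was lowest in Slm2KO 4. The sum of the 8 was 32206 (Slm2KO 4) to 41248 in Slm2KO and 41333 to 42254 in WT libraries. Of 8 glial and vascular genes 7 were negative, with Aqp4 at -0.20, Pecam1 at -0.30 and Gfap at -0.12. Of 7 excitatory neuron genes 2 were positive, with Tbr1 at -0.13, Camk2a at -0.08 and Neurod6 at 0.08. No gene of these lists passed over all features. Their part in the interneuron values was not tested.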

How the data were processed

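Trizol-extracted RNA was made into Illumina TruSeq RNA libraries, per the labels' protocols. If strands were not marked, reads of overlapping antisense genes cannot be told apart. Antisense features averaged 35.1 normalised reads at the start of Gad1 (Gad1os), 6.22 inside Reln (Gm10475) and 9.64 inside Slc32a1. A feature inside Reln that averaged 240 lay on the same strand as Reln. The deposited signal values are reads per feature scaled by DESeq, per the submitters' processing notes, with mm10 coordinates per the file headers, although the notes list hg19. Aligner, counter and versions were not stated there. In each library 100% of values were whole multiples of 1 step within 0.001 of a read, so whole reads were recovered, with size factors of 0.928 to 1.11. Every pair of libraries within a label differed by more than counting noise (chi-square over its degrees of freedom, 18.6 to 145).

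Slm2KO and WT libraries were compared with limma 3.58.1 (R 4.3.3), with an intensity trend, on log2(value + 1) for 25667 features with a mean of at least 10, a filter all 10 members passed, with Benjamini-Hochberg adjustment over all of them and a threshold of 0.05. The added 1 understates changes of low genes. The procedure was also run on simulated counts drawn independently for each feature. These lacked shifts shared by many genes between libraries, so they cannot show how the procedure behaves under such shifts. Single genes also had two-sided exact permutation tests over 70 assignments. Alternatives were pseudocounts, filters, TMM or quantile scaling, edgeR 4.0.16 and DESeq2 1.42.0 on recovered reads, limma without trend or with array weights, covariates, and left-out libraries. Named genes were the members, Khdrbs2, Khdrbs3, Ttr, the 3 genes most like each member, and from each list the passing genes or else the 3 with the smallest p; other genes named were chosen after their values were seen. Members and lists were chosen with earlier results of these data known. Neurod1 and Drd1 were not analysed here. For 1 list, a gene that the rule names is not reported here.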

Additional observations from a re-analysis of the deposited data

Results flagged for a closer look

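Within a label, 4 values stood apart from the other 3 libraries, by a gap beyond Dixon's 95% critical value (120 groups of 4 checked over 60 genes; chance flags about 1 in 20 groups, or 6 here). Gad2 in WT 1 was 8168 normalised reads, below 8649 to 8695 in the other WT libraries. Pvalb in WT 4 was 4202, above 3388 to 3471 in the others. Npas3 in WT 4 was 521, above 411 to 426, and Ebf3 in WT 3 was 1586, above 501 to 642.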

How the results depend on the processing

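No member passed under any of the 22 alternatives to the limma comparison. The log2 differences of Slc32a1, Pvalb, Sst and Vip kept their sign, but their size depended on single libraries: with each library left out in turn, Slc32a1 ran from -0.144 to -0.0443 (without Slm2KO 2), Pvalb from 0.0463 (without Slm2KO 3) to 0.170, Sst from 0.00672 (without Slm2KO 3) to 0.173 (without Slm2KO 4) and Vip from 0.0960 to 0.335. Other signs turned. Npy was at 0.0243 with array weights and 0.00988 without the 2 extreme Ttr libraries, where Cck was at 0.0120. Under the same omissions, Gad1 ran from -0.0265 to 0.0491, Gad2 from -0.0864 to 0.0348, Npy from -0.134 to 0.0822, Cck from -0.242 to 0.00859, Reln from -0.0146 to 0.104 and Calb2 from -0.217 to 0.104. The count of features higher in Slm2KO libraries was 6 with DESeq2, 0 in limma without the trend and 0 to 2 with a library left out. The count lower was 3 with DESeq2, 1 with a pseudocount of 10, 1 with Ttr as a covariate and 0 to 1 with a library left out. Unadjusted p-values under 0.05 numbered 1501 with no filter, 1623 when the 2 extreme Ttr libraries were dropped, and, with a library left out, 596 (Slm2KO 3) to 1241 (Slm2KO 1). Khdrbs3, higher in Slm2KO libraries (log2 difference 0.433), passed with DESeq2 (adjusted p = 0.0255). Khdrbs2 did not pass in limma without the trend (adjusted p = 0.172). The causes were not tested. With the replicate number as a block, 0 members and 1 feature passed and 999 features had an unadjusted p under 0.05; in this balanced design the block cannot move a log2 difference (Vip 0.19). Same-numbered libraries correlated at 0.124, 0.323, -0.0654 and -0.122, so the numbers were not taken as pairs. The median standard error of a log2 difference over all features was 0.126; how much of it is counting error was not tested.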
